A study of Homo sapiens with 4 samples.

Results

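The RNA levels of 10 circadian clock genes were followed through the 4 libraries of a knockout study in cultures labelled SKOV3 and OVCAR3, established human ovarian cancer cell lines. The 10 genes were found by symbol among 52402 symbols of the count tables. They comprise the activators CLOCK and ARNTL (now also named BMAL1), the 7 repressors PER1, PER2, PER3, CRY1, CRY2, NR1D1 and NR1D2, and the output gene DBP. All 10 were present in every table and had at least 1 CPM in each library. The list was selected on log2 ratios of these same libraries, among them the low values of NR1D1 and PER1 in the OVCAR3 pair, so its values are given as a description and no test is made on them.

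The groups were SKOV3 HERV-K119 KO, SKOV3 mock control, OVCAR3 HERV-K119 KO and OVCAR3 mock control, with 1 library each. The knockout was made with CRISPR-Cas9 against the envelope gene of HERV-K119, an endogenous retrovirus, and all 4 cultures, controls included, were transfected and then treated with hygromycin, per the labels. Whether the knockout cells were a clone or a pool, and the hour at which the cells were collected, were not stated. With 1 library per group, differences between knockout and mock have no replicate check. Each ratio is a log2 value, knockout over mock, with 2 added as prior count, and brackets after it give an exact 95% interval that covers counting error only. Levels are CPM, counts per 1000000 counts of a library after scaling with the trimmed mean of M values (TMM). The size rule for calling a gene higher or lower was a 2-fold difference with 1 CPM or more in at least 1 library of the pair.

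The mammalian clock is a transcriptional feedback loop. The proteins CLOCK and ARNTL pair up and bind E-box sequences, which switches on the PER, CRY, NR1D and DBP genes. PER and CRY proteins then block CLOCK and ARNTL, while NR1D1 and NR1D2 (REV-ERB alpha and beta) repress ARNTL and other genes through RORE sequences. DBP is a transcription factor of the PAR bZIP family that carries the rhythm to output genes through D-box sequences.

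Total counts lay between 15145483 and 22057693 per library. The OVCAR3 KO library stood apart in composition, with 21.9% of its counts in mitochondrially encoded rows, against 5.17% to 5.94% in the other libraries. Every OVCAR3 ratio rests on that library, so none can be given without it. Epithelial marker genes were high in all libraries, with summed levels of 5036 CPM in SKOV3 KO and 5410 CPM in SKOV3 mock, and of 1960 CPM in OVCAR3 KO and 7311 CPM in OVCAR3 mock. The line labels were not borne out by every identity gene. CDKN2A, which is known to be deleted in SKOV3, had 91.3 CPM in SKOV3 KO and 90.7 CPM in SKOV3 mock, and WT1, a gene known from serous ovarian cancer, had a count of 0 in all 4 libraries, so the lines are named here as labels. ERBB2, also on the identity list, had 55.8 CPM in SKOV3 KO, 58.6 in SKOV3 mock, 31.9 in OVCAR3 KO and 73.4 in OVCAR3 mock. In the same order MUC16 had 0.06, 0.04, 6.16 and 2.74 CPM, and PAX8 had 5.65, 4.74, 3.32 and 8.84 CPM. The 4 immune marker genes summed to 34.9 CPM in SKOV3 KO, 35.5 in SKOV3 mock, 8.59 in OVCAR3 KO and 15.3 in OVCAR3 mock, nearly all of it CD68, with PTPRC and CD3E at 0 counts throughout. The 5 fibroblast genes summed to 19.3 CPM in SKOV3 KO, 17.7 in SKOV3 mock, 35.0 in OVCAR3 KO and 20.6 in OVCAR3 mock, nearly all of it COL1A1, with COL3A1 at 0 counts throughout. Their part in the ratios of the clock genes was not tested.

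The promoters of the genes that differed most are shown here because the clock acts on them through short DNA motifs. Sequences are from the RefSeq promoter table of GRCh38.p14, read 5′ to 3′ on the strand of the gene, and cover bases upstream of the RefSeq start that lie outside exons annotated in GENCODE 29. Capitals mark an E-box (CACGTG), an E-prime box (CACGTT, a variant of the E-box) or a D-box (TTATGNAA), found on either strand.
PER1, chr17:8152436-8152654, minus strand: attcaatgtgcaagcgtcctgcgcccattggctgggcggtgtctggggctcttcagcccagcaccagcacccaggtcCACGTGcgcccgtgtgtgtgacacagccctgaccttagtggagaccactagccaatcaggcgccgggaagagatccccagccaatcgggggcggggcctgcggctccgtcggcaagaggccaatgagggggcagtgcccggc
NR1D1, chr17:40100726-40100839, minus strand: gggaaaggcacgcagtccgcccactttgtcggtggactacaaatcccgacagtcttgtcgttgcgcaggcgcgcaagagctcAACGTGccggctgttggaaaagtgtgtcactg
DBP, chr19:48637439-48637629, minus strand: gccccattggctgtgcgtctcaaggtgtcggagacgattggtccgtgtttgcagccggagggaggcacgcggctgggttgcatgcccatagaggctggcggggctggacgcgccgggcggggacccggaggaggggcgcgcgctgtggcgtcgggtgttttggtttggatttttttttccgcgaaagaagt
PER2, chr2:238288772-238288837, minus strand: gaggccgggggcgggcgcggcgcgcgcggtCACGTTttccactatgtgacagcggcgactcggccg
NR1D2, chr3:23945897-23946051, plus strand: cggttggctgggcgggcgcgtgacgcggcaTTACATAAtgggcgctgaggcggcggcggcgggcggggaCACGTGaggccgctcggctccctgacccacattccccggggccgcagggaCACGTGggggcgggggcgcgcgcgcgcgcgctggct

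The RefSeq table held 15 promoter windows for the 10 genes. Motifs were searched in the 250 bases before each start, and the shares beside them are over all 34943 human windows of that length. The E-box was in the windows of PER1 (173 bases before the start) and NR1D2 (155 and 105 bases before the second of its starts), and in 6.32% of all windows. The E-prime box was in 5 of the 15 windows, against 4.55% of all windows. Those 5 belonged to 5 of the 10 genes, PER2, CLOCK, CRY2, CRY1 and NR1D1. The D-box was in windows of PER1, PER3 and NR1D2 and in 3.04% of all windows. In PER1 it began 30 bases before the start, within an annotated exon of a longer transcript, and is printed with the bases around it.
PER1 D-box, chr17:8152416-8152445, minus strand: agtgcccggcaTTATGCAAcccgcctcccc

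The RORE letters TAGGTCA, to which REV-ERB and ROR proteins bind, were in the window of CRY2 and in 1.61% of all windows. In ARNTL they stood 31 bases after a RefSeq start, outside the searched window, and are shown because ARNTL is the best known target of REV-ERB repression.
ARNTL RORE, chr11:13277809-13277838, plus strand: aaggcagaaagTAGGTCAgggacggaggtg

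No member window held the cAMP response element TGACGTCA (1.63% of all windows), the site of the factor CREB, or the palindromic glucocorticoid response element (0.326% of all windows). The window of DBP held none of the motifs searched. Within these windows, E-boxes or E-prime boxes stood in genes with large and with small differences. Sites farther upstream or within genes were not searched, so a link between motifs and ratios was not tested.

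In the OVCAR3 pair 4 of the 10 clock genes were lower by at least 2-fold in the knockout library and none was higher, while in the SKOV3 pair none passed the size rule. Over all 15560 genes measured in the OVCAR3 pair, 15.4% passed it downward and 22.4% upward, or 37.8% in either direction. Over all 13524 genes of the SKOV3 pair the shares were 0.769% downward and 0.806% upward, or 1.57% in either direction. The 4 genes were NR1D1, PER1, DBP and PER2. Since the list was chosen with OVCAR3 values known, nothing is read from this share.

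NR1D1 encodes REV-ERB alpha, a nuclear receptor that represses transcription. It had 22.1 CPM in OVCAR3 KO (326 counts) and 549 CPM in OVCAR3 mock (9013 counts). This is a log2 ratio of -4.63 (-4.80 to -4.48), a level 24.8-fold lower in the knockout library. Of the 15560 genes measured in this pair 3, NR1D1 included, had a ratio this low. NR1D1 had 259.5 CPM in SKOV3 KO and 256 CPM in SKOV3 mock, with a ratio of 0.02 (-0.04 to 0.08). The OVCAR3 mock library was the highest and the OVCAR3 KO library the lowest of the 4, and the SKOV3 libraries did not differ beyond counting error.

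PER1 encodes a PERIOD protein of the repressor complex and is also known as a gene that responds quickly to hormones and growth signals. Its level was 19.1 CPM in OVCAR3 KO (282 counts), against 302 CPM in OVCAR3 mock (4953 counts). The log2 ratio was -3.97 (-4.16 to -3.81), 15.7-fold lower, and 7 measured genes, PER1 included, were at or below it. In the SKOV3 pair PER1 had 117 CPM in KO and 106 CPM in mock, with a ratio of 0.15 (0.06 to 0.23). Libraries ranked in the same order as for NR1D1, with OVCAR3 mock at the top and OVCAR3 KO at the bottom.

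PER2, the second PERIOD gene, followed the same order at lower levels. It had 10.9 CPM in OVCAR3 KO (161 counts) and 37.0 CPM in OVCAR3 mock (608 counts), a ratio of -1.75 (-2.03 to -1.51), or 3.37-fold lower. SKOV3 KO had 25.6 CPM and SKOV3 mock 22.1 CPM, with a ratio of 0.22 (0.02 to 0.41).

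DBP, the output gene, had 13.5 CPM in OVCAR3 KO (199 counts) and 139 CPM in OVCAR3 mock (2276 counts). Its ratio of -3.35 (-3.58 to -3.16) is a level 10.2-fold lower, and 19 of the measured genes, DBP included, were at or below it. SKOV3 KO had 29.7 CPM and SKOV3 mock 32.2 CPM, a ratio of -0.12 (-0.29 to 0.05) whose interval includes 0. In bulk RNA, fewer expressing cells and less RNA per cell cannot be told apart, for DBP as for the genes above.

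**Figure D1:**
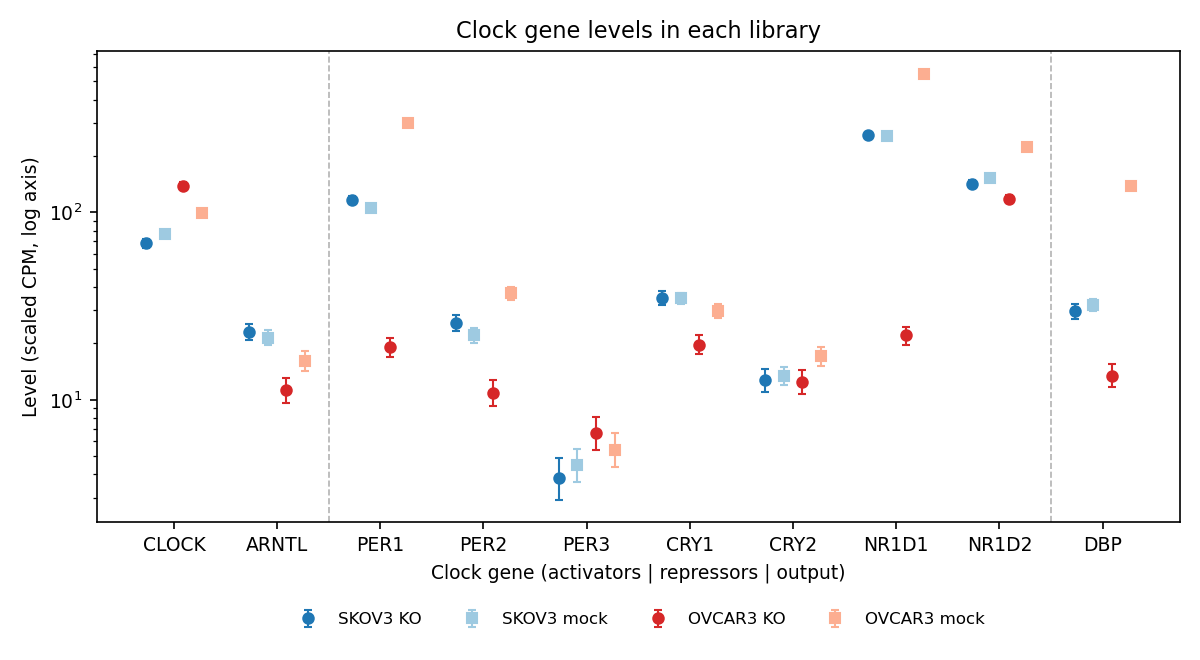
Levels of the 10 clock genes in scaled CPM (log axis) in SKOV3 KO, SKOV3 mock, OVCAR3 KO and OVCAR3 mock; bars are exact 95% Poisson intervals and dashed lines part activators, repressors and the output gene. NR1D1, PER1, DBP and PER2 are highest in OVCAR3 mock and lowest in OVCAR3 KO, with NR1D1 at 22.1 CPM in OVCAR3 KO and 549 CPM in OVCAR3 mock.

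The paralogs of these genes differed less. NR1D2, which encodes REV-ERB beta, had 118 CPM in OVCAR3 KO and 224 CPM in OVCAR3 mock, a ratio of -0.92 (-1.01 to -0.84) that missed the size rule in the main scaling. It had 143 CPM in SKOV3 KO and 153 CPM in SKOV3 mock (-0.10, -0.18 to -0.02). PER3, the third PERIOD gene and the lowest of the 10, had 98 counts (6.63 CPM) in OVCAR3 KO and 89 counts (5.42 CPM) in OVCAR3 mock. Its ratios were 0.28 (-0.14 to 0.72) in OVCAR3 and -0.23 (-0.72 to 0.24) in SKOV3, and no difference was detectable at these counts.

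The cryptochrome genes, whose proteins carry the direct repression of CLOCK and ARNTL, were moderately lower in OVCAR3 KO and did not differ beyond counting error in SKOV3. CRY1 had 19.7 CPM in OVCAR3 KO and 29.8 CPM in OVCAR3 mock (-0.59, -0.81 to -0.39), and 35.0 CPM in SKOV3 KO and 34.8 CPM in SKOV3 mock (0.01, -0.15 to 0.17). CRY2 had 12.5 CPM in OVCAR3 KO and 17.1 CPM in OVCAR3 mock (-0.44, -0.72 to -0.17), and 12.7 CPM in SKOV3 KO and 13.4 CPM in SKOV3 mock (-0.08, -0.35 to 0.18). CRY2 turned to 0.08 in OVCAR3 once a trend on GC content and transcript length was removed.

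The activators pointed opposite ways. CLOCK, which encodes a partner of ARNTL reported to have acetyltransferase activity, had 139 CPM in OVCAR3 KO and 99.8 CPM in OVCAR3 mock, a ratio of 0.48 (0.38 to 0.57). In SKOV3 it had 68.3 CPM in KO and 76.4 CPM in mock (-0.16, -0.27 to -0.05). With the trend on GC content and length removed, the OVCAR3 ratio of CLOCK turned to -0.11. ARNTL, its partner gene, had 11.2 CPM in OVCAR3 KO (166 counts) and 16.1 CPM in OVCAR3 mock (264 counts), a ratio of -0.51 (-0.81 to -0.23), and 23.0 CPM in SKOV3 KO and 21.5 CPM in SKOV3 mock (0.10, -0.10 to 0.30). ARNTL was not higher in the library where the level of its repressor gene NR1D1 was 24.8-fold lower. NR1D2, the other REV-ERB gene, still had 118 CPM in that library. The part of NR1D1 and NR1D2 in the level of ARNTL was not tested.

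**Figure D2:**
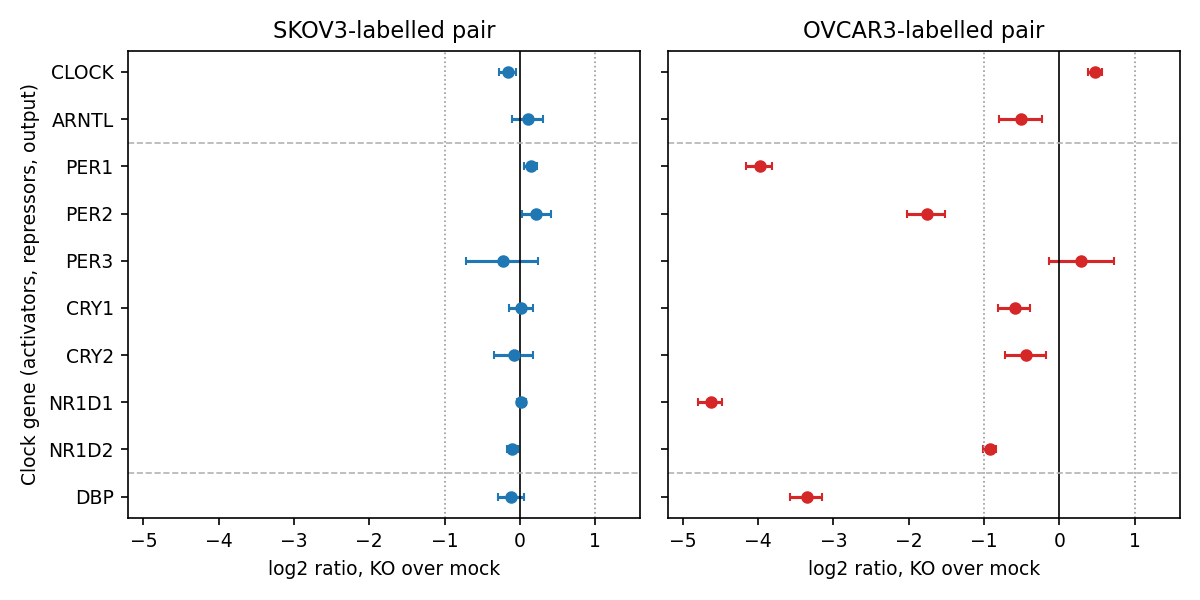
Log2 ratios of knockout over mock for the 10 clock genes in the SKOV3-labelled pair (left) and the OVCAR3-labelled pair (right), with exact 95% counting intervals; dotted lines mark 2-fold. All SKOV3 ratios lie between -0.23 and 0.22, and in OVCAR3 NR1D1, PER1, DBP and PER2 lie beyond 2-fold on the low side.

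By arm, the 7 repressors had a median ratio of -0.92 in OVCAR3, with 6 of 7 below 0 and 3 past the size rule. The 2 activators had a median of -0.02 with 1 below 0. All 15560 measured genes had a median of 0.15, with 6854 below 0 and 15.4% lower by the size rule. Since the members were chosen on these ratios, nothing is read from the counts by arm. In SKOV3 the medians were 0.01 for the repressors, -0.03 for the activators and 0.01 for all measured genes. Ratios of counts within a library need no scaling and show the same contrast, but the trend on GC content and length remains in them. CLOCK gave 2054 of the 2220 activator counts in OVCAR3 KO and 1637 of 1901 in OVCAR3 mock, so these ratios are mostly repressors per CLOCK count there. There were 1.39 repressor counts per activator count in OVCAR3 KO and 10.1 in OVCAR3 mock, against 6.53 in SKOV3 KO and 6.01 in SKOV3 mock. Without NR1D1 and PER1 the values were 1.12 in OVCAR3 KO and 2.71 in OVCAR3 mock, and 2.41 in SKOV3 KO and 2.32 in SKOV3 mock.

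The same within-library counts show how the balance between paralogs differed. NR1D1 had 0.187 counts per NR1D2 count in OVCAR3 KO and 2.45 in OVCAR3 mock, against 1.82 in SKOV3 KO and 1.67 in SKOV3 mock. PER1 had 1.75 counts per PER2 count in OVCAR3 KO and 8.15 in OVCAR3 mock, and 4.55 in SKOV3 KO and 4.78 in SKOV3 mock. CRY1 per CRY2 stayed closer, with 1.57 in OVCAR3 KO and 1.75 in OVCAR3 mock, and 2.76 in SKOV3 KO and 2.59 in SKOV3 mock. CLOCK had 12.4 counts per ARNTL count in OVCAR3 KO and 6.20 in OVCAR3 mock, against 2.96 in SKOV3 KO and 3.56 in SKOV3 mock.

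Per length, as CPM per kilobase of the longest GENCODE coding transcript, NR1D1 was the most abundant clock gene in 3 of the 4 libraries. It had 93.6 in SKOV3 KO, 92.2 in SKOV3 mock and 198 in OVCAR3 mock. In OVCAR3 KO it ranked 3 of 10 with 7.96, below NR1D2 at 22.4 and CLOCK at 13.5. DBP and PER1 stood at 6.04 and 4.05 in OVCAR3 KO, and at 62.2 and 64.1 in OVCAR3 mock, where they ranked next after NR1D1. PER3 was the lowest of the 10 in every library, with values between 0.603 and 1.05.

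Between the lines, the mock libraries already differed in these genes. OVCAR3 mock over SKOV3 mock gave log2 ratios of 2.10 for DBP (1.99 to 2.23), 1.51 for PER1 (1.44 to 1.59), 1.10 for NR1D1 (1.06 to 1.15) and 0.74 for PER2 (0.57 to 0.92). OVCAR3 KO over SKOV3 KO gave -1.13 for DBP (-1.39 to -0.90), -2.61 for PER1 (-2.80 to -2.43), -3.55 for NR1D1 (-3.72 to -3.39) and -1.23 for PER2 (-1.51 to -0.97). So these 4 genes stood above the level of the SKOV3 libraries in OVCAR3 mock and below it in OVCAR3 KO. ARNTL was below the SKOV3 level in both OVCAR3 libraries and CLOCK above it in both. These comparisons share libraries with the knockout ratios and are no separate evidence.

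**Figure D3:**
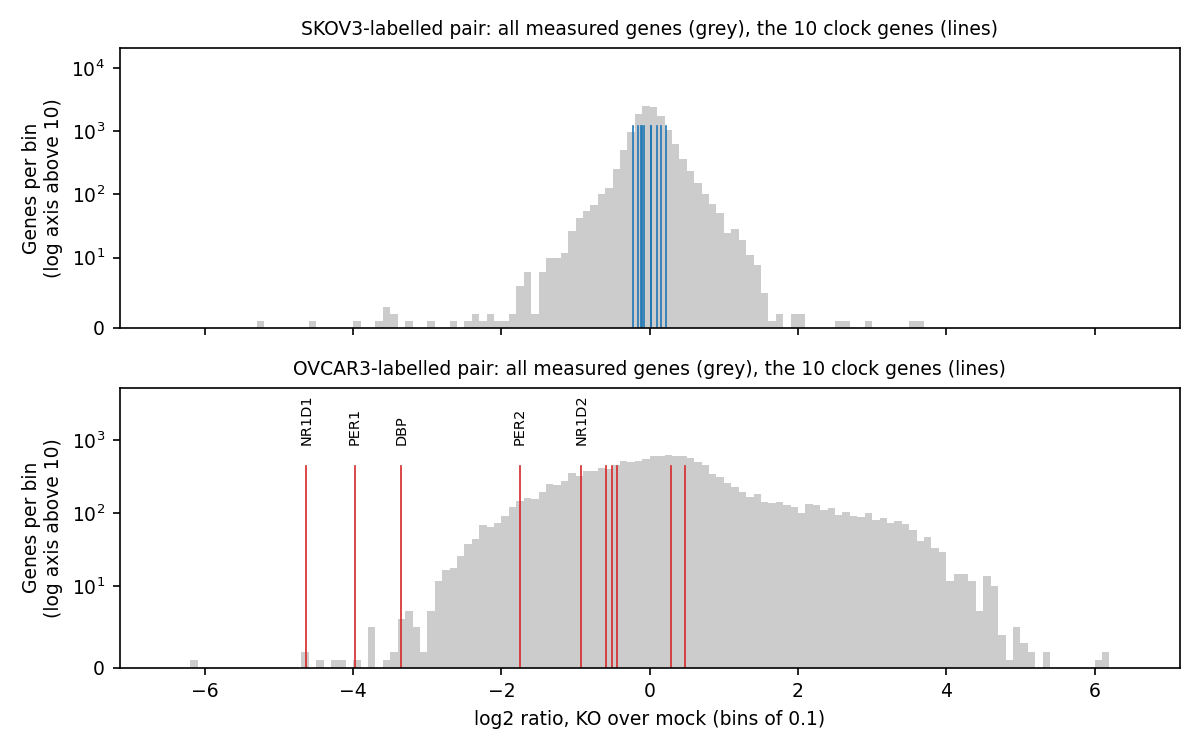
Numbers of measured genes by log2 ratio of knockout over mock (bins of 0.1, axis logarithmic above 10) in the SKOV3-labelled pair (top) and the OVCAR3-labelled pair (bottom), with lines at the 10 clock genes. The SKOV3 lines lie in the centre, and NR1D1, PER1 and DBP lie in the low tail in OVCAR3, with 3, 7 and 19 of 15560 genes at or below them.

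The genes whose pattern over the 4 libraries was most like that of NR1D1 were sought among 11775 genes whose counts summed to 100 or more, by the Euclidean distance of log2 CPM centred per gene. Among the nearest were LAMB3 (a laminin chain, distance 0.42), GDF15 (a secreted stress factor, 0.48), OSGIN1 (an oxidative stress response gene, 0.71) and PER1 (0.83). GDF15, for example, had 81.5 CPM in OVCAR3 KO and 1571 CPM in OVCAR3 mock, and 680.3 CPM in SKOV3 KO and 599.8 CPM in SKOV3 mock. For PER1 they included GDF15 (0.36), RNF223 (0.42), OSGIN1 (0.43) and JUP (plakoglobin, 0.68), with NR1D1 in place 13 and DBP in place 58. The other clock genes were farther off, PER2 in place 472 for PER1 and 727 for NR1D1, and NR1D2 in place 2879 for NR1D1. With 4 libraries this likeness rests mainly on the OVCAR3 pair.

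The wider clock was described through 48 further genes in lists drawn up for the loop, its modifiers and its outputs. Of 44 measured in OVCAR3, 17 were lower and 1 higher by the size rule, with a median of -0.77. Over all measured genes of that pair 15.4% were lower and 22.4% higher, with a median of 0.15, and the counts of each list are to be set beside these shares. Those genes include non-coding rows, and the median over the 12528 protein-coding genes alone was -0.03. Of 42 measured in SKOV3 none passed it in either direction, with a median of -0.03. In edgeR's quasi-likelihood test on the 4 libraries, blocked by line and with Benjamini-Hochberg adjustment, 0 of 13670 genes were called (0.0%) at an adjusted p of 0.05. At an unadjusted p under 0.05 there were 140 genes, 2 of them among the 43 further clock genes tested, and DESeq2 called 0 as well. The 1 residual degree of freedom of the edgeR test is the difference in knockout ratio between the lines. A change seen in 1 line could therefore hardly be called, and nothing is read from these counts.

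Of 5 other repressors measured in OVCAR3, 3 were lower and none higher, with a median of -1.54, beside 15.4% lower among all measured genes. BHLHE40 (DEC1), which competes with CLOCK and ARNTL for E-boxes, had 22.9 CPM in OVCAR3 KO and 163 CPM in OVCAR3 mock (-2.82, -2.99 to -2.66), and -0.43 (-0.51 to -0.35) in SKOV3. Its relative BHLHE41 (DEC2) had 1.49 CPM in OVCAR3 KO and 16.9 CPM in OVCAR3 mock (-3.40, -4.21 to -2.88), with 0.54 (0.36 to 0.72) in SKOV3. NFIL3, a D-box repressor that opposes DBP, had a ratio of -1.54 (-1.76 to -1.33) in OVCAR3 and -0.04 in SKOV3. CIPC, a CLOCK-binding inhibitor, differed the other way at 0.52 (0.34 to 0.70) in OVCAR3. TIMELESS, a replication fork protein related to a fly clock gene, had -0.48 (-0.63 to -0.34) and did not pass the rule.

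The PAR bZIP relatives of DBP were both lower in OVCAR3. TEF had 10.6 CPM in OVCAR3 KO and 39.9 CPM in OVCAR3 mock (-1.90, -2.18 to -1.66), and HLF had 3.52 CPM in OVCAR3 KO and 16.1 CPM in OVCAR3 mock (-2.16, -2.66 to -1.77). In SKOV3 both had positive ratios under the size rule, 0.54 (0.36 to 0.73) for TEF and 0.49 (0.19 to 0.80) for HLF. Both relatives stood past 2-fold on the low side in OVCAR3, beside 15.4% lower among all measured genes. DBP is not counted with them, since it was chosen with its OVCAR3 ratio known.

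The other activators ARNTL2 and NPAS2 did not pass the size rule in either pair. ARNTL2 (BMAL2), a paralog of ARNTL, had 52.0 CPM in OVCAR3 KO and 32.5 CPM in OVCAR3 mock, a ratio of 0.67 (0.52 to 0.84), with -0.23 (-0.37 to -0.09) in SKOV3. NPAS2, a paralog of CLOCK, had -0.21 (-0.50 to 0.08) in OVCAR3 and -0.07 in SKOV3. RORA, an activator at RORE sequences that was named after its values were seen, was the 1 gene higher, at 21 counts in OVCAR3 KO and 3 counts in OVCAR3 mock (2.32, 1.21 to 5.35). RORA reached the minimum of 1 CPM only through OVCAR3 KO (1.42 CPM, against 0.18 in OVCAR3 mock), so nothing is read from its call. In both SKOV3 libraries it was below that minimum.

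Kinases, ubiquitin ligases and cofactors of the clock had a median of -0.61 in OVCAR3, with 6 of 23 measured genes lower and none higher, beside 15.4% lower and 22.4% higher among all measured genes. The lowest were MAGED1, a coactivator of RORA, at -2.50 (-2.68 to -2.35), HUWE1, a ubiquitin ligase that acts on REV-ERB alpha, at -2.23 (-2.30 to -2.16), USP2, a deubiquitinase, at -1.98 (-2.61 to -1.51), and CSNK2A2, a casein kinase 2 subunit, at -1.95 (-2.17 to -1.76). In SKOV3 the 23 genes lay between -0.22 and 0.11, with CSNK2A1 at -0.22 (-0.28 to -0.15) as the farthest from 0. CSNK2B was listed at 0 in all 4 libraries.

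Clock-controlled outputs beyond the PAR bZIP genes had 7 of 11 genes lower and none higher in OVCAR3, beside 15.4% and 22.4% of all measured genes, and a median of -1.66. POR, the electron donor of cytochrome P450 enzymes, had 35.6 CPM in OVCAR3 KO and 225 CPM in OVCAR3 mock (-2.66, -2.79 to -2.53). NOCT (nocturnin), a phosphatase of NADP, had -2.59 (-2.90 to -2.33) and TSC22D3 (GILZ) -2.40 (-2.64 to -2.19). NAMPT, the rate-limiting enzyme of NAD salvage, had 131 CPM in both OVCAR3 libraries, with an interval of -0.09 to 0.08, and in SKOV3 116 CPM in KO and 151 CPM in mock (-0.38, -0.47 to -0.30).

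**Figure D4:**
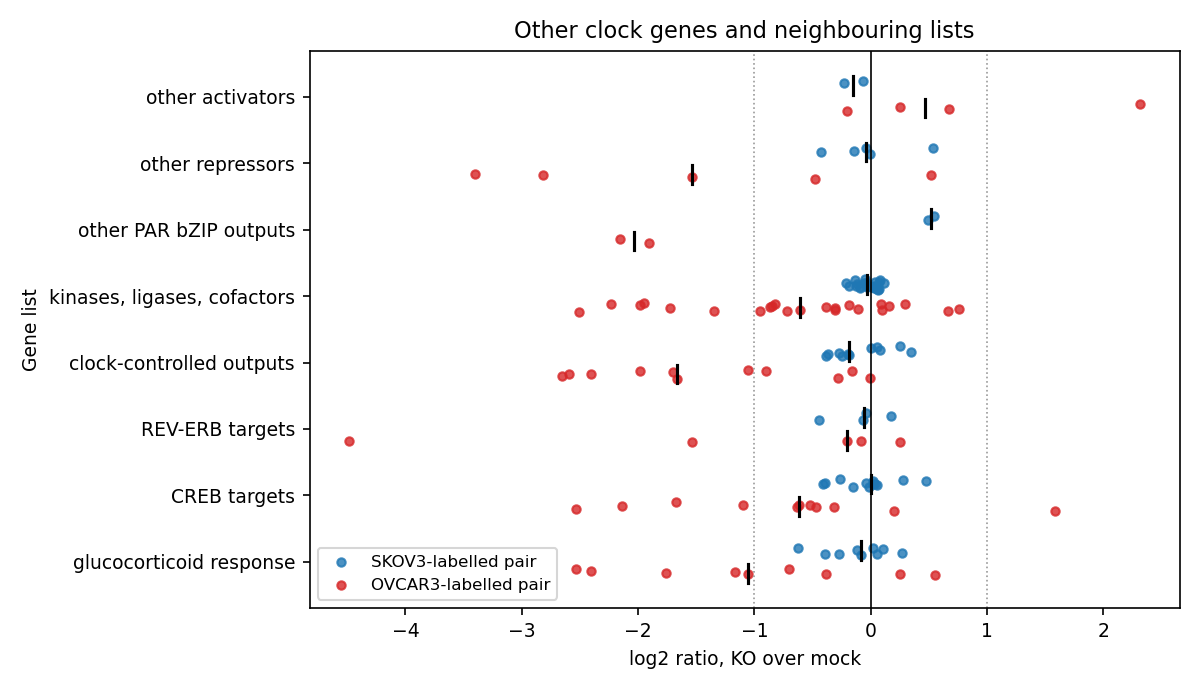
Log2 ratios of knockout over mock of the measured genes in 8 further lists, with 1 point per gene, blue for the SKOV3-labelled and red for the OVCAR3-labelled pair; black ticks are medians and dotted lines mark 2-fold. OVCAR3 medians run from -2.03 for the other PAR bZIP genes to 0.46 for the other activators, and no SKOV3 point passes 2-fold.

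Genes known to be repressed by REV-ERB were not higher as a list in OVCAR3 KO. Of 9 genes 5 were measured, none was higher and 2 were lower, with a median of -0.21, beside 22.4% higher and 15.4% lower among all measured genes. NFIL3, given above, was among the lower genes, and ELOVL3, a fatty acid elongase gene, had -0.08 (-0.49 to 0.32). In SKOV3 the measured members had a median of -0.06.

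PER1 is also a target of CREB and of the glucocorticoid receptor, so genes of those responses are given beside it. Some genes, such as DUSP1 and TSC22D3, stand in more than 1 list. Of 11 measured CREB targets in OVCAR3, 4 were lower and 1 higher, with a median of -0.62, beside 15.4% lower and 22.4% higher among all measured genes. DUSP1, a phosphatase of MAP kinases, had -2.54 (-2.81 to -2.31), NR4A3, a nuclear receptor gene, -2.13 (-3.56 to -1.32) on 9 counts in OVCAR3 KO and 51 counts in OVCAR3 mock, JUNB -1.68 (-1.78 to -1.58), and PDE4B, a cAMP phosphodiesterase, 1.58 (1.44 to 1.74). Of 9 measured glucocorticoid response genes 5 were lower and none higher, with a median of -1.06, beside the same shares. ERRFI1, a feedback inhibitor of the EGF receptor, had -1.76 (-1.80 to -1.72) and CEBPD -1.17 (-1.61 to -0.78). FKBP5, among the best known glucocorticoid response genes, had -0.39 (-0.48 to -0.29). Of the 9 genes 7 lay below 0. The rest were MT2A at 0.55 (0.50 to 0.60) and SGK1 at 0.25 (-0.43 to 0.96). In SKOV3 the medians were 0.00 and -0.09 and no gene of either list passed the size rule, the farthest being NR4A1 at 0.47 (0.29 to 0.66) and ERRFI1 at -0.63 (-0.65 to -0.60). The part of these responses in the ratio of PER1 was not tested.

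The GC content of a gene went with its ratio in the OVCAR3 pair, and the lowest clock genes were rich in GC. Over 12528 protein-coding genes the Spearman correlation between GC content and ratio was -0.42, across genes, which are not independent replicates, and in SKOV3 it was 0.13 over 11837 genes. NR1D1, PER1 and DBP had 59.5%, 62.7% and 65.5% GC in their longest coding transcript. These coding genes were split by GC content into 5 groups of nearly equal size. In the group with the highest GC content, from 58.9% to 74.7%, the median ratio was -0.70 and 37.9% were lower by the size rule. In the group with the lowest, which holds CLOCK (37.2%) and NR1D2 (38.5%), the median was 0.48 and 1.48% were lower. With the trend on GC content and length removed, NR1D1 stood at -4.12, PER1 at -3.32, DBP at -2.89, PER2 at -1.39 and NR1D2 at -1.43. The mitochondrial share named above differed in the same library, and its part in these ratios was not tested.

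**Figure D5:**
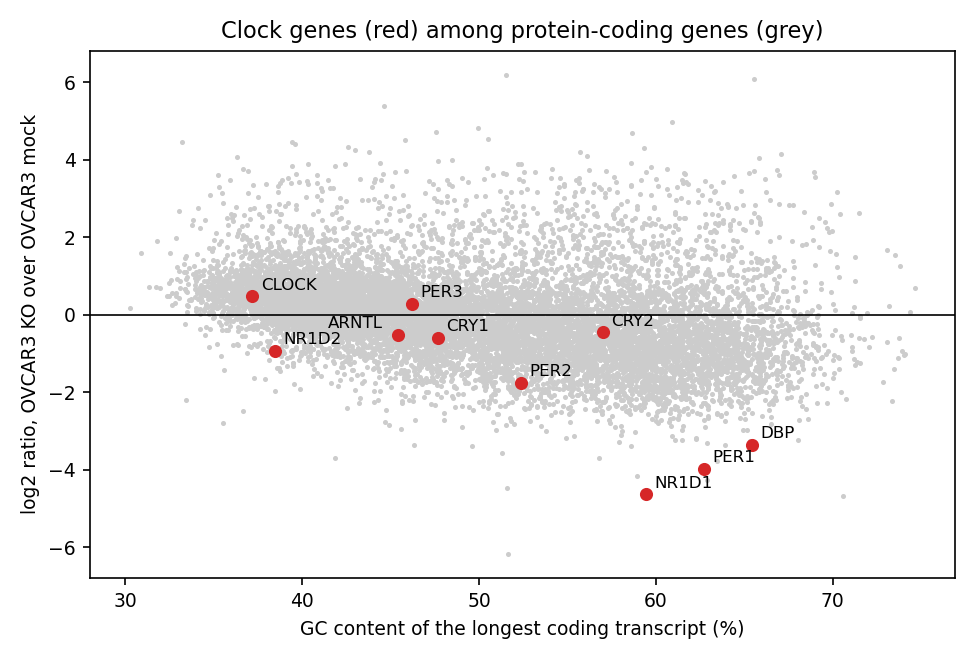
Log2 ratio of OVCAR3 KO over OVCAR3 mock against the GC content (percent) of the longest coding transcript, for measured protein-coding genes (grey) and the 10 clock genes (red, named). Ratios run lower toward high GC content, and NR1D1, PER1 and DBP lie below nearly all genes of similar GC content.

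Some clock genes overlap neighbours, and whether reads were counted by strand was not stated. NR1D1 (chromosome 17, 40092793 to 40100589) shares 1075 bases with THRA, the thyroid hormone receptor alpha gene. THRA had 163 counts in OVCAR3 KO and 505 counts in OVCAR3 mock, a ratio of -1.47 (-1.74 to -1.22), and -0.13 (-0.34 to 0.07) in SKOV3. DBP (chromosome 19, 48630030 to 48637379) shares 376 bases with SPHK2, which had 79 counts in OVCAR3 KO and 144 counts in OVCAR3 mock (-0.70, -1.13 to -0.31), and a ratio of 0.49 (0.28 to 0.70) in SKOV3. CLOCK overlaps TMEM165 over 25495 bases, and TMEM165 had 0.63 (0.46 to 0.79) in OVCAR3 and 0.16 (0.02 to 0.29) in SKOV3. NR1D2 overlaps NKIRAS1 over 1277 bases, and NKIRAS1 had 0.41 (0.29 to 0.54) in OVCAR3 and -0.16 (-0.26 to -0.06) in SKOV3, and the part of shared reads in the ratios of the 4 clock genes was not tested. PER1 (chromosome 17, 8140472 to 8152404) overlaps no other gene with a row in the tables.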

How the data were processed

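Each library had 1 table of counts deposited by the authors, in whole numbers and without normalisation. The labels' protocols name Trizol for extraction and a directional NEBNext Ultra II kit. TopHat and the build GRCh38 come from the submitters' processing notes. The counting tool, annotation release and strand setting are noted as not given in the sources used here. Each table had 58173 rows, and 2687 symbols that stood in several rows were summed, which left 52402 symbols. No row lacked a gene name.

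Groups were taken from the sample titles. TMM factors of edgeR 4.0.16 in R 4.3.3, computed on genes that reached 1 CPM in 2 or more libraries, were 1.04 for SKOV3 KO, 1.02 for SKOV3 mock, 0.934 for OVCAR3 KO and 1.01 for OVCAR3 mock. A count of 0 allows up to 3 counts, between 0.133 and 0.203 CPM. Intervals are Clopper-Pearson or Poisson intervals at 95%, and reads had no molecular identifiers. The edgeR test has the lines as its replicates and 1 residual degree of freedom. With terms for line and knockout, that degree of freedom is how far the knockout ratio differs between the lines. Its p-values are set by that difference, not by a spread between replicate cultures. No source states that the cultures were independent, and a technical part of the difference cannot be separated. DESeq2 1.42.0 was the alternative. GC content and length came from the longest protein-coding GENCODE 29 transcript of a gene, and positions from RefSeq, GRCh38.p14. The trend was a spline with 5 degrees of freedom on each, fitted to measured coding genes. The code was tested on simulated data.

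The members, lists and tests were chosen with earlier results of these data known. Named genes were the 10 members, from each list up to 4 genes with the largest ratio in size in OVCAR3 and 1 in SKOV3 (summed count of at least 100), the 5 genes nearest to NR1D1 and to PER1 (uncharacterised, antisense and small RNA symbols left out), and genes overlapping a member. FKBP5, RORA, MT2A and SGK1 were named after their values were seen. A gene that the rule also names is not reported here.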

Additional observations from a re-analysis of the deposited data

Results flagged for a closer look

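Of 45 genes examined (the members and the genes that the naming rule gives, overlapping neighbours included), 13 had counting intervals on opposite sides of 0 in the pairs of the 2 lines, 3 of them members. Genes of the lists were named for large ratios in these same pairs, and others for likeness to NR1D1 or PER1 over the same libraries. The share over all measured genes was not computed, so nothing is read from the 13 of 45. The difference between the lines was not tested, since each pair is 1 knockout and 1 mock library. The log2 ratio in OVCAR3 less that in SKOV3 was -4.12 for PER1, -1.97 for PER2 and 0.64 for CLOCK, whose OVCAR3 ratio turned to -0.11 with the trend on GC content and length removed. Among the other genes it was -3.94 for BHLHE41, -2.65 for HLF, -2.45 for TEF, -2.91 for POR, -1.09 for NR4A1, 0.91 for ARNTL2, -4.45 for GDF15 and -4.13 for OSGIN1. For neighbours that overlap a member it was 0.57 for NKIRAS1 and -1.19 for SPHK2. With the trend on GC content and length removed, the OVCAR3 ratio of NR4A1 was -0.07, against -0.62 (-0.85 to -0.39) before. That of ARNTL2 was 0.32, also outside its counting interval. BHLHE41 at -3.22, HLF at -2.33, POR at -2.14 and TEF at -1.39 stayed past 2-fold. The SKOV3 ratios of the 13 genes lay between -0.23 and 0.54, all within 2-fold. NR1D1 and DBP are not among them because their SKOV3 intervals include 0.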

How the results depend on the processing

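The count of clock genes lower by the size rule in OVCAR3 was 4, and it was 5 with no scaling factor and with the trend on GC content and length removed, where NR1D2 joined at -1.03 and -1.43. It was 6 at 1.5-fold and 4 under the other settings tried (3-fold, no filter, a minimum of 5 CPM, a prior count of 0.5 or 5, DESeq2 size factors, mitochondrial rows left out). In SKOV3 it was 0 in both directions under all of these settings, and also with the OVCAR3 KO library left out of the scaling, a setting chosen for these counts after seeing the data. The OVCAR3 median of the repressors was -1.03 with no scaling factor and -1.39 with the trend removed, and that of the activators -0.38 with the trend removed. With no scaling factor the median of all measured genes in OVCAR3 moved by -0.11. Of 60 alternative values of single members in OVCAR3, 2 crossed the size rule (both of NR1D2). Among members not past the rule, 3 moved beyond the counting interval without crossing the rule. They were CLOCK at 0.37 with no scaling factor and, with the trend removed, CLOCK at -0.11 and CRY2 at 0.08. The 4 lower genes stayed past the rule throughout. With the trend removed each of them left its counting interval toward 0, NR1D1 at -4.12, PER1 at -3.32, DBP at -2.89 and PER2 at -1.39. The remaining values did neither, nor did any of 70 in SKOV3. The fit over both lines called 0 genes with edgeR, with DESeq2, with no filter, with DESeq2 size factors and with no line block. These fits could hardly call a change seen in 1 line, so nothing is read from the 0. No paired analysis was possible because each group has 1 library and the groups share only replicate number 1; the block in the fit over both lines is the line. Depth limits PER3 most, with 60 to 101 counts per library. Without replicate libraries the variation between cultures is not measured.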
